A study of Mus musculus with 8 samples.

Results

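The tumours compared here were T-lymphoblastic lymphomas of the mouse 12 lineage, grouped by the organ named in the sample title. Pancreas gave 3 tumours (M12.49, M12.52 and M12.53) and a neck lymph node gave 2 (M12 and M12.50), which are 5 of the 8 arrays in the series. All 5 tumours carried the SEC31A-JAK2 fusion, were on the Balb/c strain and grew after bone marrow transplantation. M12 was a primary transplant, and the other 4 were secondary transplants derived from mouse 12, so the tumours share an origin and are not independent of each other. Only the neck lymph node group holds the primary tumour. Ages, the promoter of the fusion gene and the share of tumour cells in each organ are not given in the sources used here.

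Each tumour DNA was labelled with Cy5 and hybridised on an Agilent mouse genome array against Cy3-labelled DNA of a normal wildtype Balb/c mouse, 1 array per tumour. The readout is the log2 ratio of tumour over normal signal at 221455 autosomal probes, centred on the autosomal median of each array, so that a negative value stands for less DNA in the tumour. Positions are on mouse build mm9. DNA arrays carry no expression, so the label T-lymphoblastic lymphoma could not be checked against marker genes. Errors of single-array values are standard errors (SE) over probes, which hold no replicate error.

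Developing T cells assemble their antigen receptor genes by joining scattered segments and discarding the DNA in between. A T-cell lymphoma that arose from a single cell therefore carries the same missing stretch in every tumour cell. Host cells other than T cells keep it, whereas normal T cells, which a lymph node holds, have discarded stretches of their own. The depth of such a loss in bulk DNA falls as cells that kept the DNA are admixed, and its ends mark the clone. The probes carry no gene names, and the locus names below come from background knowledge of mm9.

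Before the results, 2 arrays need a remark. On M12, the mean log2 ratio was −0.90 on chromosome X and 2.88 on chromosome Y, whereas the other 4 tumours lay between 0.03 and 0.10 on X and between −0.29 and 0.06 on Y. The reference dye of M12 set it apart, at −3.88 on Y relative to autosomes against −0.79 to −0.57 on the other 4 arrays. The sample dye of M12 on Y, −0.98, lay within their range of −1.02 to −0.55. The second array is M12.53, whose log2 ratios correlated negatively with each other lineage array over all autosomal probes (Pearson r from −0.51 to −0.32, a description over probes of 5 arrays). Its direction was kept, because the labels state the same dyes for every array and its deepest losses lay at the same places, with the same sign, as in the other tumours. Noise between neighbouring probes was 0.43 (SD) on M12.52 and 0.22 to 0.27 on the other 4 arrays.

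The first question was how deep the losses shared by all 5 tumours ran in each organ. Stretches of chromosomes 6, 12 and 14 were called lost in every tumour of both organs. The organ means were close on chromosomes 12 and 14, while on chromosome 6 the pancreas mean was the lower by 0.21. The organ groups overlapped on each chromosome and no difference passed the test, and on all 3 chromosomes the neck lymph node pair held the shallowest tumour by measured log2 ratio, M12. On chromosomes 12 and 14 the same pair also held the deepest, M12.50.

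The chromosome 6 loss lies in the T-cell receptor beta locus (chr6:41018389-41489670, 60 probes), which encodes the beta chain of the receptor. From pancreas, M12.49 had a mean log2 ratio of −0.92 ± 0.08, M12.52 of −1.07 ± 0.09 and M12.53 of −0.99 ± 0.06. From the neck lymph nodes, M12 had −0.63 ± 0.06 and M12.50 had −0.92 ± 0.08. M12 alone was shallow, and M12.50 measured the same as M12.49 from the other organ (difference 0.00 ± 0.03, SE over probes). The means were −0.99 ± 0.07 in pancreas (SD, n = 3) and −0.78 ± 0.20 in neck lymph node (SD, n = 2). The groups overlapped, and the difference of −0.21 had a two-sided exact permutation p of 0.4 and 0.8 after Benjamini-Hochberg adjustment over 4 comparisons. With 3 against 2 tumours there are 10 splits, so the smallest p is 0.2 and no such test could pass 0.05.

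The chromosome 12 loss (chr12:107329523-109293982, 103 probes) reaches over the region of Bcl11b, a transcription factor needed for T-cell identity that acts as a tumour suppressor in T-cell leukaemia. M12.49 measured −0.76 ± 0.03, M12.52 −0.71 ± 0.04 and M12.53 −0.79 ± 0.03. Of the neck lymph node tumours, M12 measured −0.64 ± 0.03 and M12.50 −0.94 ± 0.03. All 3 pancreas tumours thus lay between the neck tumours. The means were −0.75 ± 0.04 in pancreas (SD, n = 3) and −0.79 ± 0.21 in neck lymph node (SD, n = 2), a difference of 0.04 (exact permutation p 0.8, adjusted 1).

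The chromosome 14 loss (chr14:53344285-54827341, 120 probes) lies in the T-cell receptor alpha and delta locus, whose alpha chain pairs with the beta chain. From pancreas, M12.49 had −2.43 ± 0.11, M12.52 −2.61 ± 0.12 and M12.53 −2.19 ± 0.11. From neck lymph node, M12 had −2.09 ± 0.10 and M12.50 −2.81 ± 0.13. The pancreas tumours again lay between the neck tumours. The means were −2.41 ± 0.21 (SD, n = 3) and −2.45 ± 0.51 (SD, n = 2), a difference of 0.04 (exact permutation p 1, adjusted 1). Signal limited these sizes, since M12.52 had 24.2% and M12.49 had 42.5% of its sample probes well above background, against 70.8% to 80.8% for the other 3 tumours. With dim probes raised to the lowest signal well above background, the normal DNA was at least 3.50-fold brighter than the tumour DNA for M12.49, 3.07-fold for M12.52, 3.83-fold for M12.53, 3.88-fold for M12 and 5.76-fold for M12.50. M12.50 had the highest bound, but these are lower limits and do not settle the order of the tumours with many dim probes.

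**Figure D1:**
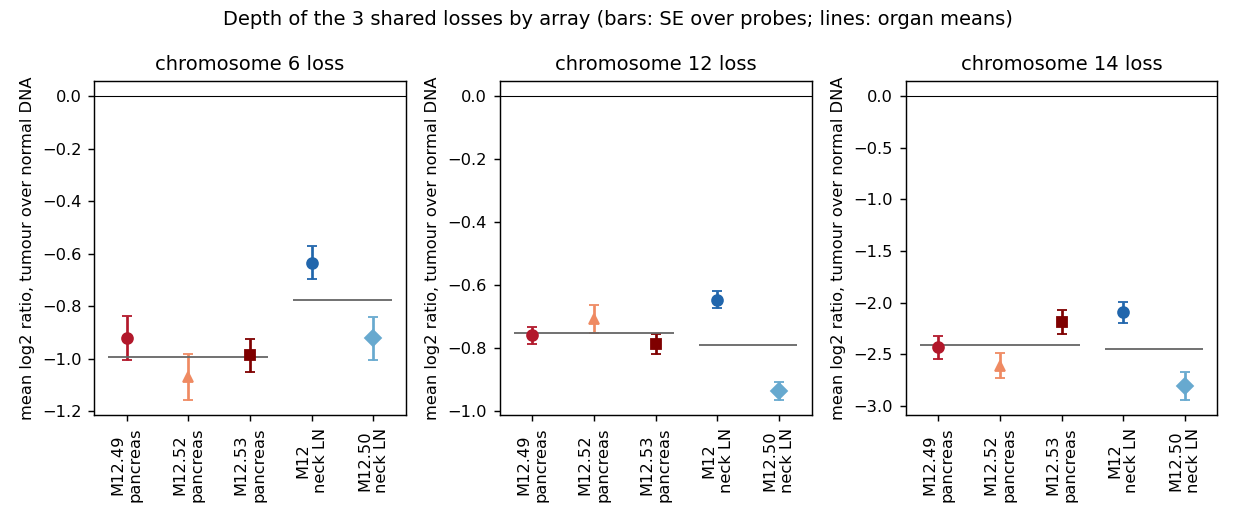
Mean log2 ratio of tumour over normal DNA (y axis) for each tumour array (x axis) in the 3 losses that all tumours share, with bars for the standard error over probes and grey lines for the organ means. The 2 neck lymph node tumours lie far apart in every panel, and on chromosomes 12 and 14 they enclose the 3 pancreas tumours.

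These tests lean on few tumours, and leaving out 1 neck tumour turned signs. Without M12.50, the differences on chromosomes 12 and 14 were −0.11 and −0.31. Without M12, which leaves secondary transplants only, the chromosome 6 difference was −0.07, while those on chromosomes 12 and 14 were 0.19 and 0.40. Without M12.53 the chromosome 14 difference was −0.07. Among arrays scanned on the same day, the pair of M12.53 and M12.50 spans both organs, and M12.53 minus M12.50 was −0.07 on chromosome 6, 0.15 on chromosome 12 and 0.62 on chromosome 14. With the sign of M12.53 turned, the organ differences would be 0.44, 0.56 and 1.50.

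The depth of a loss was next read as a share of tumour cells. If each tumour cell had lost 1 of 2 copies and every other cell had kept both, the copies lost per cell, 2 × (1 − 2 to the power of the log2 ratio), would equal the tumour cell share. In bulk DNA, fewer tumour cells and a loss carried by only some of them cannot be told apart. Read this way on chromosome 12, the pancreas tumours M12.49, M12.52 and M12.53 had shares of 81.7% ± 2.2, 77.5% ± 3.8 and 84.0% ± 2.6 (SE over probes). The neck tumours M12 and M12.50 had shares of 72.1% ± 2.4 and 95.4% ± 2.0. High shares were therefore read in both organs with these signals, and the spread within the lymph node pair was wider than that within pancreas. Neither held with normexp signals, from another background correction. There the shares were 7.4%, 41.3% and 71.2% in M12.49, M12.52 and M12.53, and 37.8% and 77.8% in M12 and M12.50.

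The spread of the chromosome 12 share depended on what counted as level 0. The 100 probes on either side of the loss averaged 0.09 in M12 and −0.12 in M12.50, and lay between −0.03 and 0.03 in the pancreas tumours. Relative to these flanks the share was 80.2% in M12 and 86.7% in M12.50, and 80.7%, 79.9% and 81.7% in M12.49, M12.52 and M12.53. The range over the 5 tumours thus narrowed from 72.1% to 95.4% down to 79.9% to 86.7%. This centring was chosen after the data were seen.

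On chromosome 6 the same reading gave 94.2% ± 6.1, 104.6% ± 5.8 and 99.1% ± 4.5 for M12.49, M12.52 and M12.53. For M12 it gave 71.1% ± 5.6 and for M12.50 94.4% ± 6.0. A value at or above 100% leaves no room for admixed cells that kept both copies, under loss of a single copy. The last probe of the chromosome 6 loss measured −5.26 to −3.59 over the 5 tumours, deeper than loss of a single copy can give. It enters these means, so the reading does not hold along the whole loss. On chromosome 14 the same reading ranged from 153.2% to 171.5%, more than loss of a single copy can give. Under loss of both copies the chromosome 14 share would be 81.5%, 83.6% and 78.0% for M12.49, M12.52 and M12.53, and 76.6% and 85.7% for M12 and M12.50, values that dim probes can move. These shares also average stretches of unlike depth. Over the 5 tumours, copies lost were 0.996 to 1.21 at chr14:53714075-54174602 and 1.695 to 1.84 at chr14:54598128-54827341. A single share therefore does not describe the whole loss.

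If chromosomes 6 and 12 were each lost once in the same cells and kept in all others, the tumour cell share would cancel in the ratio of copies lost. That ratio, chromosome 6 over chromosome 12, was 0.986 ± 0.084 in M12 and 0.989 ± 0.067 in M12.50. For the pancreas tumours M12.49, M12.52 and M12.53 it was 1.15 ± 0.08, 1.35 ± 0.10 and 1.18 ± 0.06. Every pancreas tumour lay above both neck tumours. The organ means were 1.23 ± 0.11 (SD, n = 3) and 0.988 ± 0.002 (SD, n = 2). The difference of 0.24 had an exact permutation p of 0.2, the smallest that 10 splits allow, and 0.8 after adjustment. With medians over probes, on which the deep last probe of chromosome 6 weighs little, the organ means were 1.13 and 0.929. The close match of the neck tumours depended on the processing. Their ratios were 0.867 in M12 and 1.0998 in M12.50 relative to the flanks of each loss, and 1.07 and 0.935 with normexp signals. The pancreas ratios still lay above both, at 1.15 to 1.29 and at 1.0984 to 1.47. The 1.0984 belongs to M12.49, whose losses measured only −0.06 on chromosome 6 and −0.05 on chromosome 12 with normexp signals. That ratio therefore carries little weight.

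**Figure D2:**
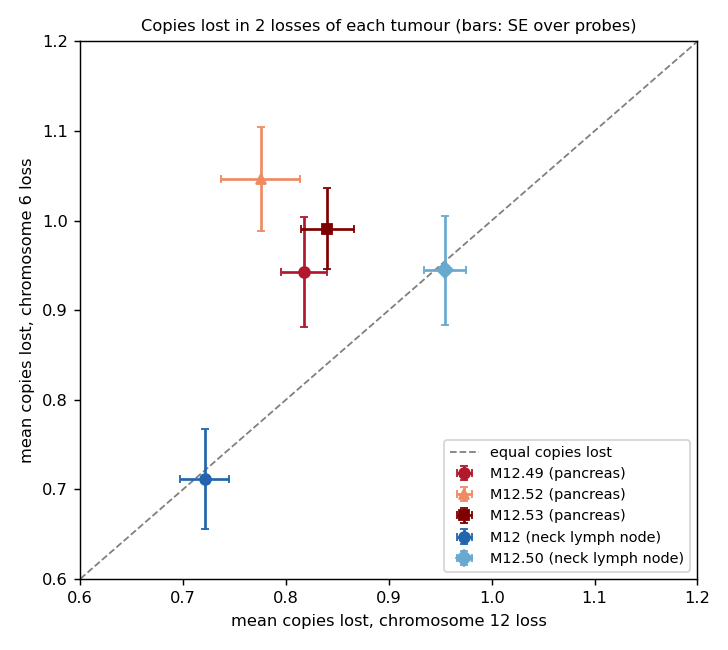
Copies lost per cell in the chromosome 12 loss (x axis) against the chromosome 6 loss (y axis) for each tumour, with bars for the standard error over probes and a dashed line where both are equal. The 2 neck lymph node tumours lie on the line and the 3 pancreas tumours lie above it.

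The reference dye of M12 moved with this result. In the chromosome 6 loss that dye deviated by −0.26 (log2) from the mean of the 5 arrays, against 0.03 to 0.09 on the other 4, while its deviation in the chromosome 12 loss was 0.01. With the mean reference signal of the 5 arrays in place of each array's own, the chromosome 6 loss of M12 was −0.86, beside −0.87 in M12.49 and −0.88 in M12.50. M12.53 then measured −0.91, and M12.52 remained the deepest. The ratio became 1.32 in M12 and 1.05 in M12.50, against 1.02, 1.15 and 1.18 in M12.49, M12.52 and M12.53, and the organ difference turned to −0.07. Without M12 and with each array's own reference, the organ difference of the ratio was 0.24, against the single neck tumour M12.50.

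The chromosome 6 loss was not even along its length. Over its first 14 probes (chr6:41018389-41112757) the tumours lay close, at −0.86, −0.95 and −0.78 in M12.49, M12.52 and M12.53 and at −0.76 and −0.83 in M12 and M12.50. Over the next 44 probes (chr6:41122850-41472046) M12 measured −0.53 ± 0.04, M12.50 −0.85 ± 0.05 and the pancreas tumours −0.85 ± 0.05, −1.03 ± 0.07 and −0.99 ± 0.06. M12 thus parted from the other 4 tumours in the second stretch, where its reference dye deviated by −0.29, against −0.15 in the first. The ratio to chromosome 12 overlapped between the organs over the first stretch, from 0.989 to 1.24 in pancreas and from 0.915 to 1.14 in neck lymph node. Over the second stretch it did not overlap, at 1.09, 1.32 and 1.18 in M12.49, M12.52 and M12.53 against 0.850 in M12 and 0.936 in M12.50. The second stretch is a segment of the pancreas minus neck lymph node profile of these same tumours. A larger organ difference there is built into that choice and is no further evidence.

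**Figure D3:**
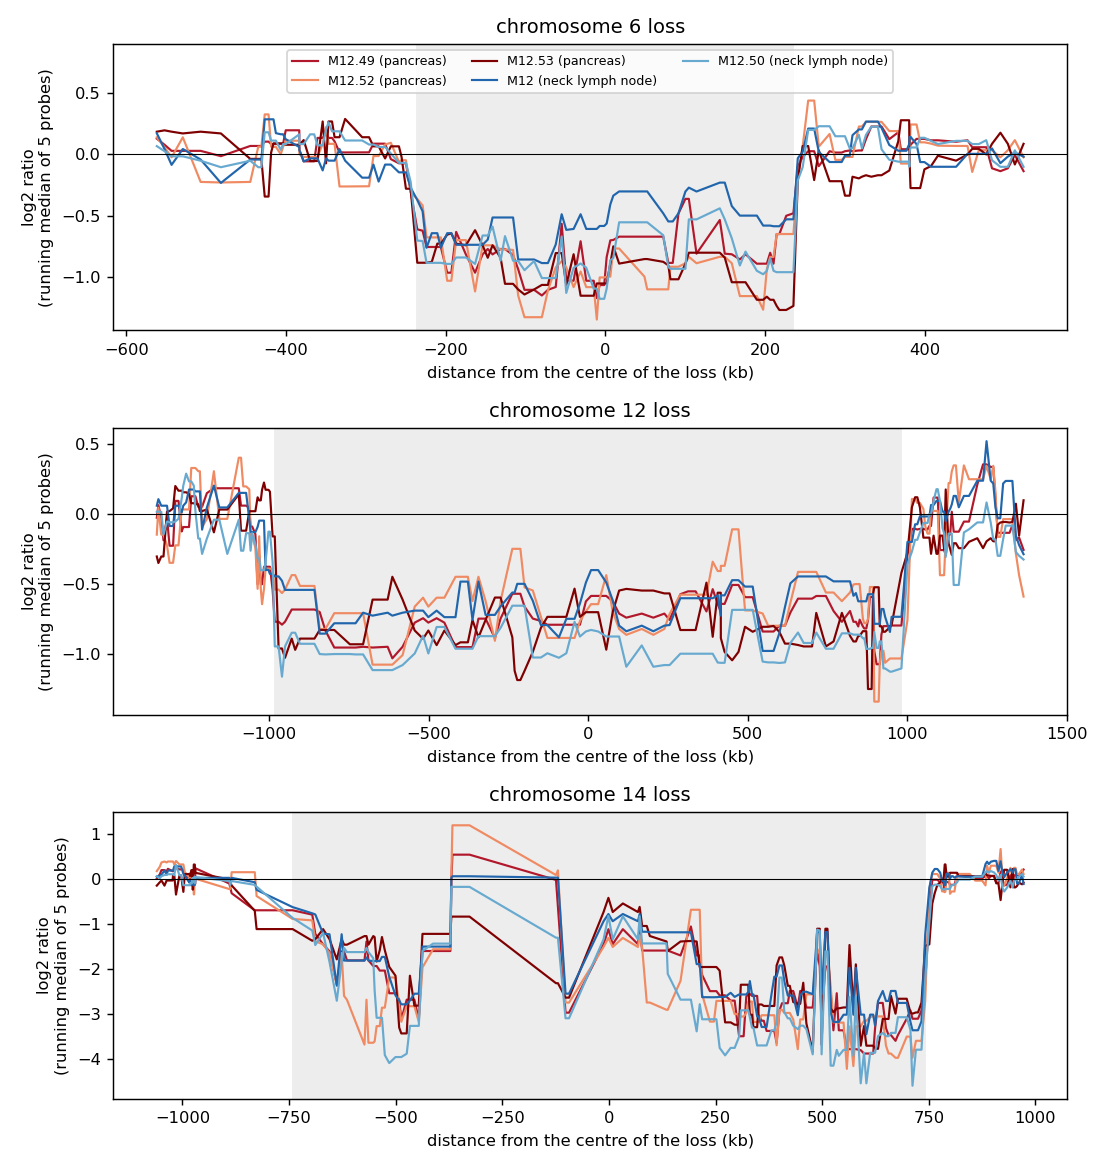
Running median over 5 probes of the log2 ratio (y axis) against the distance in kb from the centre of each shared loss (x axis), red shades for pancreas and blue shades for neck lymph node, with the span of the loss in grey. The 5 tumours drop and return at nearly the same places, and M12 lies above the others over the right part of the chromosome 6 loss.

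The second question was whether the losses ended at the same places in both organs. Of the 6 outer ends, 5 lay within 3 probes of the end in the organ-balanced mean profile in all 5 tumours. Both ends on chromosome 6 fell on the same probe in every tumour. On chromosome 12 the end at 109293982 was shared by all 5. The start at 107329523 was shared by 4, and the start in M12.52 lay 5 probes earlier, at 107296026. In that noisy array, probe positions up to 107329523 fitted within 4 noise variances of the best, so the position in M12.52 was not resolved from the others. No end separated pancreas from neck lymph node.

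The called start on chromosome 14 varied most between tumours. It was called at 53201304 in M12.49, 53397427 in M12.52 and 53255476 in M12.53, and at 53415714 in M12 and 53344285 in M12.50. The pancreas starts enclosed that of M12.50, and the start of M12 was called last. The earliest and the latest of these starts are 6 probe steps apart, at −143.0 kb (M12.49) and 71.4 kb (M12) from the start in the balanced profile. In M12, M12.49 and M12.50 only 1 probe position each fitted within 4 noise variances, and all 3 starts count as within 3 probes. That fit sets a single edge in a loss whose depth changes in steps. The 3 probes before the called start of M12 already read −0.76, −0.62 and −0.79, so a later start in M12 is not shown. At the far side, M12.49, M12.50 and M12.52 ended at 54827341, M12 1 probe earlier and M12.53 1 probe later.

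Within the chromosome 14 loss the depth changed in steps, and the balanced profile divided it into 8 blocks. All 5 tumours followed the same course, with shallow values in block 5 (chr14:53714075-54174602, −0.99 to −1.33) and deep values in block 8 (chr14:54598128-54827341, −2.71 to −3.64). The largest departure lay inside 1 organ. In block 2 (chr14:53459150-53570870, 13 probes) M12.52 measured −2.94 ± 0.25 and M12.53 −1.47 ± 0.18, with M12.49 at −2.03 ± 0.20. The neck tumours, at −1.73 ± 0.16 in M12 and −2.44 ± 0.37 in M12.50, lay between these pancreas values.

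The order of M12.52 and M12.53 in block 2 held by bound too. All sample probes of M12.53 were well above background there, giving 2.76-fold, whereas the bound for M12.52 was at least 4.47-fold, with 30.8% of its sample probes above background. The direct difference of M12.49 and M12.52 contained a segment at chr14:53464836-53548506 (9 probes), with M12.49 higher by 1.32 ± 0.13. The blocks on either side showed no such gap between these 2 tumours, which measured −1.36 ± 0.26 and −1.43 ± 0.22 in block 1 and −3.09 ± 0.22 and −3.03 ± 0.54 in block 3.

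**Figure D4:**
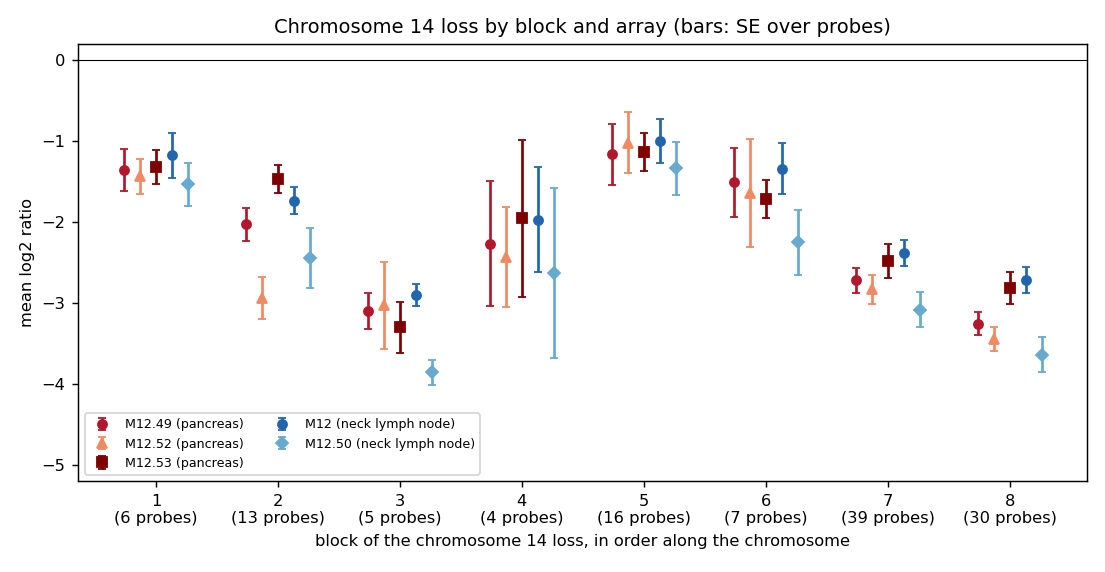
Mean log2 ratio (y axis) in the 8 blocks of the chromosome 14 loss in order along the chromosome (x axis) for each tumour, with bars for the standard error over probes. In block 2 the pancreas tumours M12.52 (−2.94) and M12.53 (−1.47) lie on either side of both neck lymph node tumours.

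The third question was whether either organ carried segments of its own. A region counted as private to an organ when it was called in every tumour of that organ and in none of the other. There were 0 such regions among the 11 called on autosomes. Of the 6 regions with good reference signal (75% or more of their probes well above background), 5 were called in both organs and 1 in a single tumour. The other 5 had dim reference signal and are given only as counts, apart from those on chromosomes 3 and 4 that enter a difference below.

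The region called in a single tumour was a loss at chr6:8333534-8458778 (19 probes) in M12.49. It measured −1.09 ± 0.05 there, against −0.20 ± 0.09 in M12.52 and −0.02 ± 0.07 in M12.53 from the same organ, and 0.02 ± 0.04 in M12 and 0.07 ± 0.05 in M12.50. The loss was thus a feature of M12.49 and not of pancreas tumours as a group. A gain at chr10:78482731-81052572 (455 probes), a gene-dense stretch, measured 0.22 ± 0.01 in M12 from neck lymph node and 0.40 ± 0.02 in M12.53 from pancreas. It was 0.01, 0.09 and −0.11 in M12.49, M12.52 and M12.50, so 1 tumour of each organ had a call there. The calls did not share their ends, running from 79059568 to 81052572 in M12 and from 78482731 to 80764528 in M12.53. Over chr10:78514518-79050217 (41 probes), M12 lay below M12.53 (difference −0.84 ± 0.08), so the gain of M12 did not include the first stretch of that in M12.53. The M12.53 value has the direction that the labels give, on the array whose ratios run against the others.

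A short loss at the immunoglobulin heavy chain locus (chr12:114670169-114719029, 6 probes), the antibody gene that T cells can also rearrange in part, passed the call rule in M12.49 (−2.07 ± 0.41) and in M12.50 (−1.68 ± 0.50). M12.52 measured −1.49 ± 0.40 without a call, and M12.53 and M12 measured −0.28 ± 0.23 and −0.06 ± 0.19. The low values again came from both organs. Whole chromosomes did not separate the organs either, and the organ groups overlapped on all 19 autosomes. Chromosome means lay between −0.05 and 0.04 in every tumour. Chromosome 15, which is often gained whole in mouse T-cell lymphomas, measured −0.01 in M12.49, −0.02 in M12.52, −0.00 in M12.53, 0.01 in M12 and −0.01 in M12.50.

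**Figure D5:**
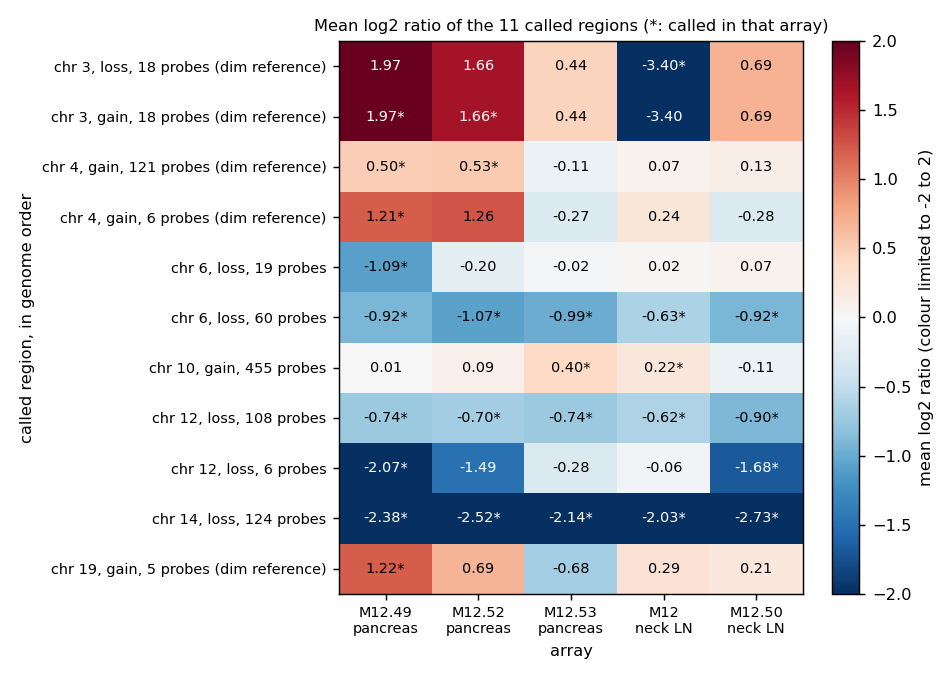
Mean log2 ratio of the 11 called regions (rows, in genome order; the chromosome 3 region stands once as a loss and once as a gain) in each tumour array (columns), coloured from blue (loss) to red (gain), with an asterisk where the region was called in that array. No row is marked in all 3 pancreas columns and neither of the 2 neck lymph node columns, or the reverse.

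Subtracting the neck lymph node mean from the pancreas mean at each probe gave 7 segments. Of these, 4 lay on chromosomes 3 and 4. There 20% or fewer of the reference probes were well above background (median over the 5 arrays), so they give no usable size of the organ difference. The 3 on chromosome 3 (chr3:44131436-44516704) held −3.55 to −3.25 in M12, with 83.3% of its sample probes well above background. By contrast M12.50, from the same organ, held 0.51 to 0.82 and M12.53, from pancreas, −0.23 to 0.87. The segment on chromosome 4 (chr4:111804393-111958521), in the Skint gene cluster, was high in M12.49 and M12.52 and low in M12.53 (0.91, 1.02 and −0.28). The other 3 had good reference signal, and in each of them 1 tumour stood apart by measured log2 ratio.

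The first of these was the M12.49 loss on chromosome 6 given above, where the organ difference was −0.49 ± 0.03. The second was the stretch of the chromosome 6 loss in which M12 was shallow, where the difference was −0.27 ± 0.02. The third lay within the chromosome 14 loss (chr14:54253650-54380631, 12 probes), with a difference of 0.50 ± 0.14. There M12.50 measured −3.31 ± 0.30, whereas M12 measured −2.30, close to the pancreas tumours at −2.35, −2.24 and −2.31. In the overlapping block 7 (chr14:54304425-54593381), 33.3% of the sample probes of M12.49 and 17.9% of those of M12.52 were well above background. The depth of these 2 tumours against M12.50 is therefore not settled. The count of segments was 3 without M12.49 or without M12.52.

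Called differences between single tumours were most numerous inside the neck lymph node pair and few among the pancreas pairs. M12 and M12.50 differed by 35 called segments that covered 80.0 Mb, and M12 was the higher in 29 of them. Of the 35, 22 were 1 Mb or longer, and the longest stretch by probes (chr2:24240633-34047878, 1317 probes) differed by 0.25 ± 0.01. That difference, like the smallest of the 35 (0.253), barely passed the call threshold of 0.25. Whether such long and small differences are array patterns or differences in DNA was not tested. The pancreas pairs differed by 2 segments (M12.49 and M12.52), 3 segments (M12.49 and M12.53) and 2 segments (M12.52 and M12.53). The 6 pairs across organs differed by 2 to 11 segments, with a median of 6.5. Counts cannot be compared across pairs of unlike noise, because the segmentation penalty rises with noise. Noise was 0.43 to 0.64 (SD) in the pairs with M12.53, against 0.19 in the neck pair. At similar noise, M12.49 differed from M12 by 11 segments (SD 0.19) and from M12.50 by 10 (SD 0.17).

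Outside the called regions, means over 10 neighbouring probes did not group the tumours by organ either. Over 22021 such windows Pearson r was 0.77 for M12.49 and M12.52, both from pancreas and both in the same scan. It was −0.14 for M12 and M12.50, both from neck lymph node but in different scans, and 0.67 for M12 and M12.52 across organs. M12.53 correlated at −0.37 and −0.55 with the other pancreas tumours. These values describe shared array patterns as well as DNA, since the windows of an array share its labelling and scan, and their parts were not tested.

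A limma fit over all 22135 autosomal windows of 10 probes asked for organ differences anywhere in the genome. It called 0 windows (0% at an adjusted p under 0.05), and 25 windows had an unadjusted p under 0.05. That is far below the share of 0.05 expected when no window differs. The fit was thus conservative, and 0 calls do not show that the organs are alike. Every pancreas tumour lay above both neck tumours in 516 windows (2.33%) and below both in 1012 (4.57%). In the chromosome 6 loss 3 of 7 windows had every pancreas tumour below, with a median organ difference of −0.19 against −0.01 over all windows. None of the 11 windows in the chromosome 12 loss and none of the 13 in the chromosome 14 loss separated the organs in either direction, and their median differences were 0.03 and 0.01.

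Of the 3 windows with the smallest p in each direction outside the shared losses, none passed the correction (limma adjusted p 0.9998 for each). Those higher in pancreas were 2 windows in the dim chromosome 3 stretch and chr17:22278297-22358026. That window measured 0.18, 0.09 and 0.09 in M12.49, M12.52 and M12.53 and −0.13 and −0.08 in M12 and M12.50. Of those lower in pancreas, chr8:87136444-87193969 measured −0.35, −0.24 and −0.26 in pancreas and 0.10 and −0.05 in neck lymph node, a difference of −0.31 ± 0.09. At chr17:71414402-71487669 the values were −0.11, −0.14 and −0.05 against 0.16 and 0.08. At chr12:114784998-114854380, close to the immunoglobulin heavy chain loss, they were −0.28, −0.27 and 0.10 against 0.34 and 0.05, so that M12.53 lay among the neck tumours.

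The limma count moved with the arrays in the fit. It was 2 without M12.49, 4 without M12.52, 2 without M12.53 and 2 with array weights, and 0 without either neck tumour. With scan as a block limma called 622 windows (427 higher and 195 lower in pancreas, 10 of them in the shared losses). Only the scan of M12.50 and M12.53 held both organs, so that fit sets these 2 tumours against each other with 1 residual degree of freedom. No slide held tumours of both organs, so slide and organ cannot be told apart within slides.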

How the data were processed

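The authors deposited processed intensities of both dyes, which per the file headers had the background subtracted and a linear dye normalisation applied by Agilent Feature Extraction 10.5.1.1 (9.1.1 per the submitters' processing notes). Flags for signal well above background are other columns that the authors deposited. Log2 ratios were computed without control and outlier spots, averaged per probe and centred on the autosomal median. M12 took mm9 positions by probe name.

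Values beyond 3 SD of the running median (11 probes) were winsorised. Exact penalised least squares then segmented each chromosome (penalty 6 × noise variance × log n, at least 3 probes, neighbours under 0.15 merged). Calls needed an absolute mean of 0.25 over 5 probes, and calls under 150 kb apart were joined into regions. Shared losses come from the mean of both organ means. Windows of 10 probes were fitted in limma 3.58.1 (lmFit, eBayes, Benjamini-Hochberg), and single values were tested by exact permutation. The code was tested on simulated data. Tools were Python 3.11.15, numpy 2.4.6, scipy 1.17.1 and R 4.3.3.

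Members, regions and lists were chosen with earlier results of these data known. Named were regions called in all 5 tumours, private to an organ, or called with good reference signal, segments of the organ difference, and the 3 windows a direction with the smallest limma p. Labels do not say whether tumours came from separate animals, so p-values measure only the spread between these samples. The number of arrays limits the precision. Alternatives covered signals, filters, centring, reference dye, segmentation, batch and each tumour left out. Normexp used median signals. The series table was not used.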

Additional observations from a re-analysis of the deposited data

Results flagged for a closer look

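Among the 5 tumours, 6 of 14 values had an array further from its nearest neighbour than Dixon's 95% limit allows, which chance exceeds in about 1 of 20 groups. Of these, 4 belong to M12, whose mean log2 ratio was −0.90 on chromosome X and 2.88 on chromosome Y, with a reference dye at −0.0684 on X and −3.88 on Y relative to autosomes. The reference dye of the other 4 tumours lay between −0.96 and −0.83 on X. The labels describe the reference of M12 in the same words as that of the others. The noise of M12.52, 0.43 (SD between neighbouring probes), stood above the 0.22 to 0.27 of the other 4 arrays. The chromosome 12 loss of M12.50 relative to its flanks, −0.82, lay below the −0.76 to −0.74 of the other 4 tumours.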

How the results depend on the processing

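No paired analysis was possible because the labels give these tumours no replicate numbers that pair organs. The organ difference on chromosome 6 was 0.0474 with normexp signals, which drew the chromosome 14 loss of M12.49 to −0.10, and 0.44 with the sign of M12.53 turned. On chromosome 12 it was −0.0872 with the pooled reference dye, and on chromosome 14 −0.00998 with probes above background in the reference. The copy ratio difference was −0.0710 with the pooled reference dye. Leaving out 1 tumour gave −0.36 to −0.07 on chromosome 6, −0.11 to 0.19 on chromosome 12 (−0.11 without M12.50), −0.31 to 0.40 on chromosome 14 (−0.07 without M12.53, −0.31 without M12.50) and 0.18 to 0.28 for the copy ratio. Segments of the organ difference numbered 1 with normexp, 2 with the reference filter, 11 with a penalty of 3 times and 3 to 7 with 1 tumour left out. Shared ends within 3 probes numbered 0 with normexp and 5 to 6 with 1 tumour left out. Organ-private segments numbered 0 to 2 with 1 tumour left out, all of them on chromosomes 3 and 4 with dim reference (2 without M12.53, 1 without M12.50), and 0 under the other alternatives run. The limma count was 0 to 4 with 1 tumour left out, 2 with array weights and 622 with scan as a block, and 0 with normexp, where 517 windows had an unadjusted p under 0.05. The causes were not tested. Precision is limited by 3 and 2 arrays and by signal over background on chromosome 14.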
